A study of Caenorhabditis elegans with 4 samples.

Results

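Chromosome II of the nematode Caenorhabditis elegans carried 480 intervals called as binding sites of HLH-30, a transcription factor of the bHLH-ZIP class. HLH-30 is the worm counterpart of mammalian TFEB and is known for switching on autophagy and lysosome genes. Sites were mapped by ChIP-seq, in which chromatin fragments attached to a protein are pulled down with an antibody and sequenced. They were taken as every line of the combined peak list whose chromosome is II, which gave 480 of 2791 combined peaks. The 2 replicate lists held 255 of 1527 and 274 of 1559 peaks on the same chromosome.

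Chromosomes of this worm have no single centromere. As background, the autosomes have a central part rich in conserved and widely expressed genes, flanked by 2 arms that recombine more and carry more repeated sequence. A transcription factor peak marks where chromatin fragments bound by the tagged protein piled up above control. It does not name the gene that is regulated.

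All libraries came from whole hermaphrodites at the L4 larval stage, grown at 20 °C and fixed with 2% formaldehyde. The strain, OP433, carries the mutation unc-119(ed3) III and the transgene wgIs433. That transgene holds hlh-30::TY1 EGFP FLAG, a C-terminally tagged hlh-30, together with unc-119(+), a working copy that rescues the host mutation. It was made by recombineering and introduced by bombardment. The submitters describe the fusion as following the normal hlh-30 expression pattern, and the genotype lists no mutation of the host's own hlh-30 gene. The 2 ChIP libraries were collected with anti-GFP antibodies. The 2 input libraries, from chromatin that was not precipitated, carry the same transgene and are not analysed here. Worms are sampled whole, so binding in few cells and weak binding in many cannot be told apart. Whether the replicates were separate cultures is not stated, and their spread may be purely technical.

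Each peak has coordinates on WormBase build WS180 and a q-value from the peak caller, PeakSeq. The q-value is a p-value adjusted for multiple testing, so the smaller it is the stronger the call, and strength is given here as −log10 q. It reflects read number as well as enrichment, and wider intervals collect more reads. The depth of the libraries is unknown because the lists hold no counts. No gene names or sequences are attached, since no annotation or genome of this build was used here.

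The clearest feature of HLH-30 binding on chromosome II was its lopsided placement. Peaks were sparse over the left end and plentiful over the middle and the right end. The chromosome was divided by length into 3 equal sections, left, central and right. For its length the furthest peak end of the 3 lists, at 15263566, was used, which is a lower bound. Of the 480 combined peaks, 88 (18.3%, 95% Wilson interval 15.1 to 22.0, counting error only) had their centre in the left section, against 27.8% of the peaks of all 6 chromosomes. The central section, from 5087856 to 10175710, held 211 (44.0%, 39.6 to 48.4), against 41.0% over all chromosomes. The right section held 181 (37.7%, 33.5 to 42.1), against 31.2% over all chromosomes. In density these counts came to 17.3 peaks per Mb on the left, 41.5 in the centre and 35.6 on the right.

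Both replicates gave the same order of left against right. Replicate 1 had 41 peaks in the left section, 107 in the centre and 107 on the right. Replicate 2 had 45, 121 and 108. The left share was 16.3% ± 0.244 (SD, n = 2), the central share 43.1% ± 1.56 and the right share 40.7% ± 1.80, so the gap between left and right was far larger than the spread between replicates. Centre and right did not separate in this way, since replicate 1 gave them equal counts.

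On the other chromosomes the left section held between 26.5% (III) and 36.4% (IV) of the combined peaks. In the replicates the left share ran from 25.5% ± 1.001 (III) to 44.0% ± 1.81 (IV), each with n = 2. The ratio of right to left peaks on II was 2.06 in the combined list, 2.61 in replicate 1 and 2.40 in replicate 2. The next highest ratios were those of X, at 1.39, 1.54 and 1.54. Chromosome II thus had the lowest left share and the highest right to left ratio of the 6 chromosomes in each of the 3 lists. Both measures take the left as the sparse end, and I, IV and V were sparser on the right. On IV, replicate 1 had 50 peaks on the left and 28 on the right, and replicate 2 had 53 and 20. The right share in the replicates was 20.5% ± 4.83 on IV and 20.0% ± 1.59 on I (SD, n = 2). The differences between chromosomes were not tested, because peaks are not replicates and there are 2 samples.

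**Figure D1:**
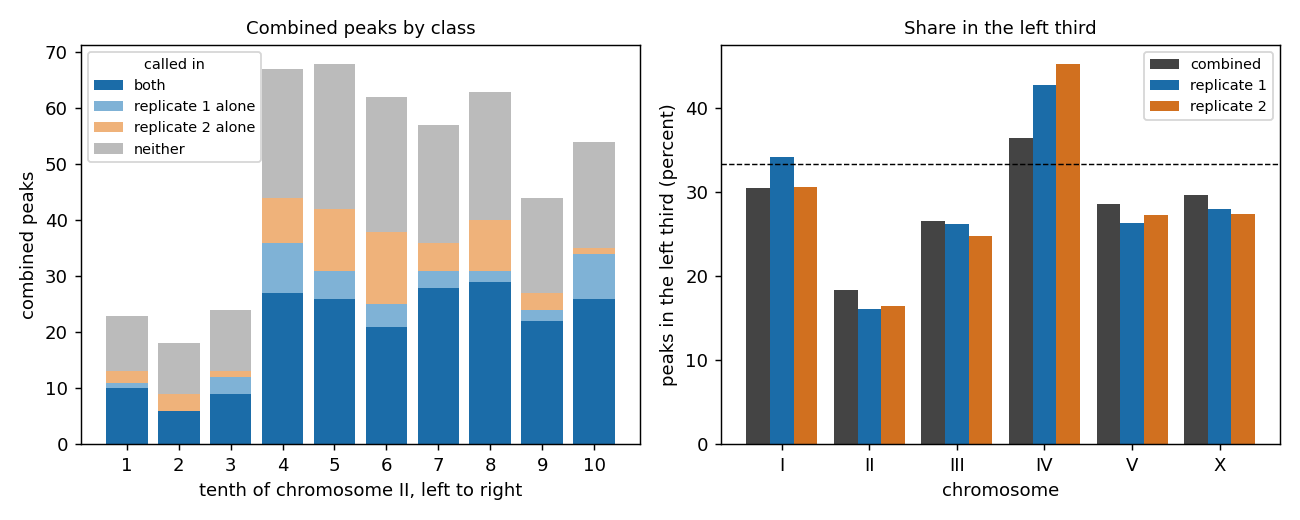
Left, combined peaks in 10 segments of equal length along chromosome II, stacked by the replicate lists in which they were also called. Right, percent of each chromosome's peaks in the left section for the 3 lists, with a dashed line at 33.3%. Segments 1 to 3 hold 23, 18 and 24 peaks and segment 4 holds 67, and the bars for II are the lowest of the 6 chromosomes.

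With the length divided into 10 equal segments, counts changed most between segments 3 and 4. Segments 1 to 3 held 23, 18 and 24 combined peaks. Segment 4, which begins at 4579070, held 67. Segments 5 to 8 held 68, 62, 57 and 63, and the last pair held 44 and 54. In replicate 1 the step from segment 3 to segment 4 was from 12 to 38 peaks, and in replicate 2 from 10 to 36. The mean of the replicates in segment 4 was 37.0 ± 1.41 and in segment 2 it was 7.50 ± 2.12 (SD, n = 2). The fullest was segment 5 in the combined list, segments 4 and 10 in replicate 1 with 38 peaks each, and segment 8 in replicate 2 with 40 peaks.

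Strong peaks, like all peaks, were fewest in the left section. None of the 20 strongest combined peaks lay there, 9 lay in the centre and 11 on the right. Of the 79 peaks that reached −log10 q of 20, 9 (11.4%, 6.11 to 20.3) were in the left section, 34 in the centre and 36 on the right. The left section's 18.3% of all peaks lies inside that interval. Such peaks made up 10.2% (5.47 to 18.3) of the left section, 16.1% (11.8 to 21.7) of the centre and 19.9% (14.7 to 26.3) of the right. These intervals overlap, and no order is read from them. The median −log10 q was 6.71 on the left, 7.65 in the centre and 7.60 on the right, and the median width was 442, 515 and 483 bp. The strongest peak of the left section was the first on the chromosome, from 18686 to 19715 (−log10 q = 51.2).

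Read in 62 bins of 250 kb, the combined list had a median of 7 peaks per bin and a variance 2.78 times the mean. The corresponding ratio was 2.19 in replicate 1 and 2.33 in replicate 2. The 18 bins up to 4.5 Mb had a median of 3 peaks, and 13 of them held fewer than 5. Of the 44 bins from 4.5 Mb on, 40 held at least 5, and the median was 9.5. The bound at 4.5 Mb was chosen from these same data, where counts rose, so the contrast is a description only. The rise was gradual at this scale, with 3, 3, 5, 5, 8, 10 and 14 combined peaks in the bins from 3.5 to 5.25 Mb. Bin counts of the replicates rose and fell together, at a Spearman's rho of 0.89 and Pearson's r of 0.89 across the 62 bins. The bins share the same libraries and are not independent.

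**Figure D2:**
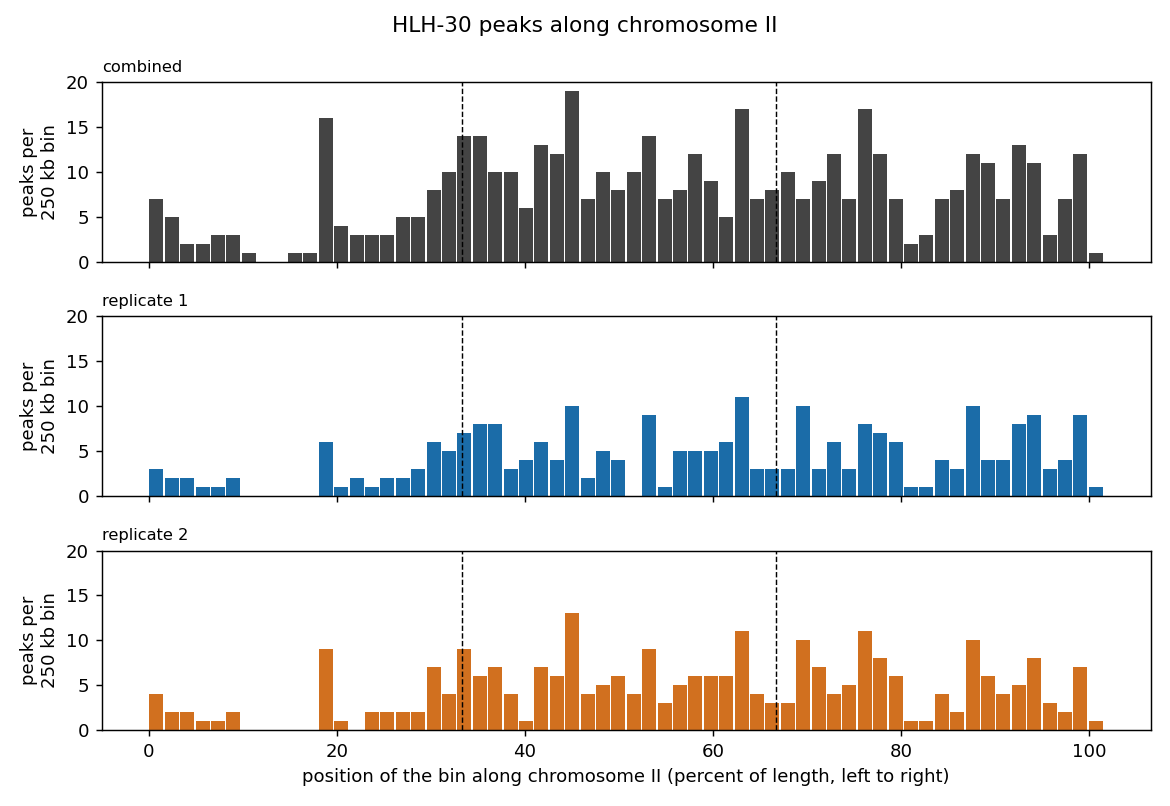
Peaks per 250 kb bin along chromosome II, in percent of its length, for the combined list and each replicate, with dashed lines at the section bounds and a short last bin. The bins near 12% to 14% of the length are empty in all 3 lists, the bin near 19% holds 16, 6 and 9 peaks, and the tallest combined bin holds 19.

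The emptiest stretch lay in the left arm. Bins from 1.75 to 2.25 Mb held no peak in any list. In the replicates the empty run extended from 1.5 to 2.75 Mb, where the combined list had 3 peaks, all called in neither replicate. The longest interval without a combined peak was 833 kb, from 1502566 to 2335543. In replicate 1 the longest was 1482 kb, from 1320791 to 2802643, and in replicate 2 it was 1480 kb, from 1320757 to 2800805. All the next 4 gaps of the combined list also lay in the left section and measured 229 to 248 kb. In the replicates the other long gaps included one of 399 kb that both placed in the right arm, from 12339426 to 12738704 in replicate 1 and from 12339469 to 12738747 in replicate 2.

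A single crowded bin followed the empty stretch. Between 2.75 and 3 Mb the combined list had 16 peaks, replicate 1 had 6 and replicate 2 had 9, next to bins of 1 and 4 combined peaks. The 16 peaks ran from 2800838 to 2988225. Of these, 6 were called in both replicates, 3 in replicate 2 alone and 7 in neither. The strongest, from 2973528 to 2974505, had −log10 q of 37.5 in the combined list, 26.9 in replicate 1 and 19.2 in replicate 2. The second, from 2920674 to 2921276, had 30.5, 17.6 and 12.0018. The other 14 had −log10 q between 4.20 and 11.96 in the combined list, and 7 of them were placed between 2800838 and 2834545, apart from the strong pair.

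The most crowded bin of the chromosome, from 6.75 to 7 Mb, had 19 combined peaks, 10 of replicate 1 and 13 of replicate 2. Bins at 9.5 to 9.75 Mb and 11.5 to 11.75 Mb followed with 17 combined peaks each. The first of these had 11 peaks in each replicate and the second had 8 and 11. The crowded left arm bin came next with 16. A tie at 14 peaks, shared by the bins starting at 5, 5.25 and 8 Mb, made up the fifth place.

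The strongest HLH-30 site on the chromosome, and in the whole combined list, was a single broad interval in the right section. It ran from 10541852 to 10557757, was 15906 bp wide and had q = 6.88e-293. Its width was 32.8 times the median of the chromosome and 2.47 times that of the next widest peak. It made up 4.56% of all sequence in the combined peaks of chromosome II. Neither replicate called it as 1 interval. The strongest replicate peak inside it ranked 3 in the whole list of replicate 1 and 6 in that of replicate 2.

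Replicate 1 divided the interval into 5 peaks. In order along the chromosome, the first ran from 10541861 to 10545745 (−log10 q = 17.4). A weak one followed from 10545949 to 10546760 (5.09). The core peak, from 10547001 to 10552882, was 5882 bp wide with −log10 q of 98.8, the strongest of replicate 1 on chromosome II. Beyond a gap of 2279 bp came peaks from 10555162 to 10556210 (19.8) and from 10556537 to 10557689 (15.3).

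Replicate 2 divided it into 4. The first ran from 10541876 to 10543572 (−log10 q = 17.5) and was 1697 bp wide, against 3885 bp in replicate 1. No replicate 2 peak corresponded to the weak second peak of replicate 1. The core peak, from 10547023 to 10552642, was 5620 bp wide with −log10 q of 81.7, again the strongest of its list on the chromosome. The remaining peaks ran from 10554515 to 10556213 (27.3) and from 10557018 to 10557757 (16.04).

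The replicates therefore placed the core alike, with left edges 22 bp apart and right edges 240 bp apart, and differed in the flanks. Replicate 1 covered 80.4% of the broad interval and replicate 2 covered 61.3%. Both covered 9038 bp (56.8%), either covered 84.9%, and 2407 bp (15.1%) lay in no replicate peak. The longest stretch in no replicate peak was 1632 bp, from 10552883 to 10554514, just right of the core. The longest stretch held by replicate 1 but not replicate 2 was 2173 bp, from 10543573 to 10545745.

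**Figure D3:**
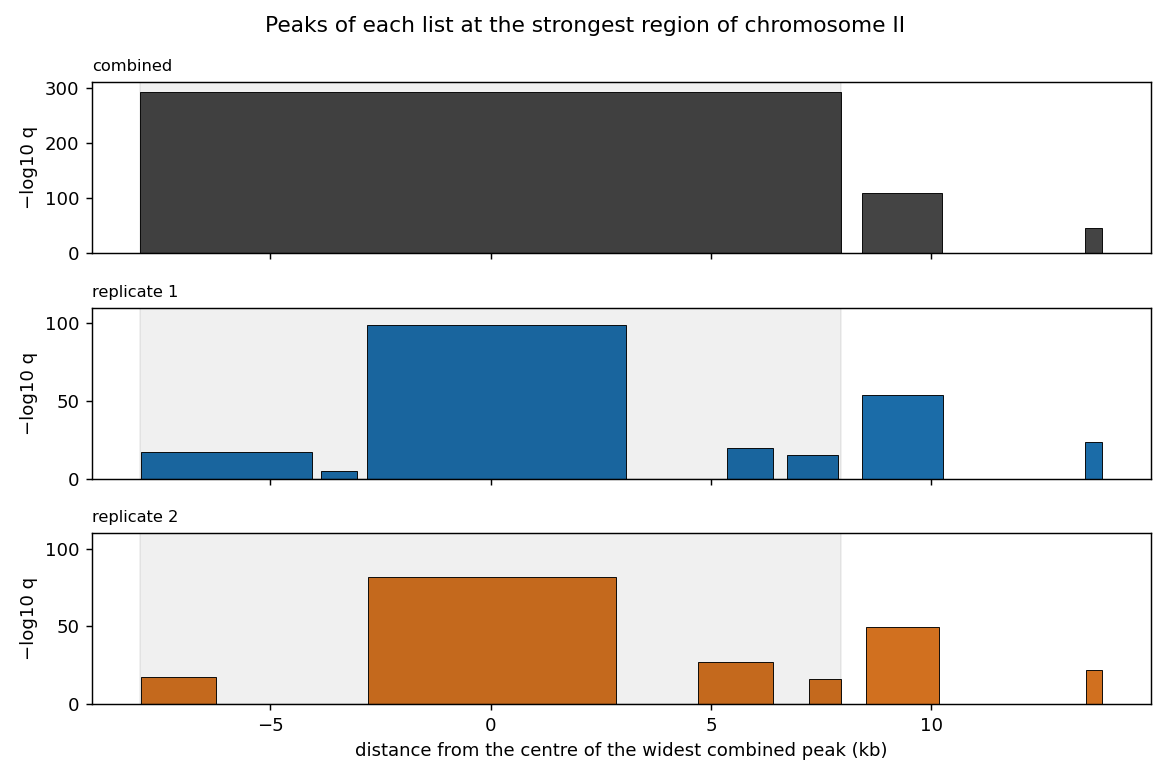
Peaks of the combined list (top), replicate 1 (middle) and replicate 2 (bottom) around the widest peak of chromosome II, drawn to scale by distance from its centre, with height giving −log10 q on separate scales and grey marking the combined interval. A core of 5882 bp in replicate 1 and 5620 bp in replicate 2 stands above lower flanking peaks.

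Strong sites also lay around it. The combined peak from 10558232 to 10560041 began after a gap of 474 bp and ranked 4 on the chromosome, with −log10 q of 109 in the combined list, 54.2 in replicate 1 and 49.6 in replicate 2. Both replicates kept it separate from the last peak of the broad interval. A narrow peak of 386 bp followed, from 10563301 to 10563686, with −log10 q of 45.3, 23.7 and 21.8. To the left, the peak from 10387952 to 10390820 ranked 2, with −log10 q of 121, 68.3 and 59.5. The peak from 10445649 to 10448649 ranked 6, with 92.3, 38.0 and 50.2. Of the 6 strongest combined peaks of chromosome II, 4 lay within 172 kb.

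In the combined list that concentration did not come with a high peak number. The bin from 10.5 to 10.75 Mb held 7 combined peaks, the median of the chromosome. It held 10 peaks in each replicate, more than in the combined list, because the broad interval was divided there. That was a high number for the replicates, whose medians per bin were 3.5 in replicate 1 and 4 in replicate 2. Bins of 10 or more peaks numbered 4 in replicate 1 and 5 in replicate 2. The neighbouring bin from 10.25 Mb, which contains ranks 2 and 6, had 10 combined peaks, of which 7 were called in neither replicate.

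The other 2 of the 6 strongest lay in the central section. Rank 3, from 6345291 to 6348957, was 3667 bp wide with −log10 q of 117 in the combined list, 65.7 in replicate 1 and 53.9 in replicate 2. Rank 5, from 8741813 to 8748239, was the second widest at 6427 bp, with −log10 q of 105. Each replicate divided it into 2 peaks, the stronger at 32.4 in replicate 1 and 43.7 in replicate 2.

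All of the 20 strongest combined peaks were called in both replicates, against 42.5% of all combined peaks on II and 44.5% over all chromosomes. The combined list covers the same 2 replicates, so strength and sharing are not independent. The −log10 q of the 20 ran from 54.9 to 292. Width varied widely among them. Of the 20, 11 exceeded 2000 bp and 4 were at most 1000 bp. The narrowest were 469 bp, from 13447524 to 13447992 (rank 20), and 470 bp, from 8561131 to 8561600 (rank 12). The latter reached −log10 q of 77.5 in the combined list, 49.6 in replicate 1 and 47.4 in replicate 2, which shows that strength near that of the broad sites also occurred in a narrow interval.

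Replicate 1 gave the smaller q-value at 15 of the 20 (95% Wilson interval of the share 53.1% to 88.8%). The widest disagreement was at rank 7, from 11633916 to 11636961, with −log10 q of 46.2 in replicate 1 and 24.3 in replicate 2. Replicate 1 had a single peak of 2314 bp there and replicate 2 had 2 peaks, the stronger 658 bp wide. In the opposite direction, rank 6 had 38.0 in replicate 1 and 50.2 in replicate 2, and rank 16, from 5181382 to 5183517, had 23.4 and 35.5. At rank 16 it was replicate 1 that divided the interval, into 2 peaks, while replicate 2 held it whole at 2140 bp. At rank 14, from 14039886 to 14040815, each replicate had 1 peak of similar width, 922 and 847 bp, and the values were 42.8 and 27.7.

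Over all 204 combined peaks called in both replicates, replicate 1 was stronger at 113 (55.4%, 48.5 to 62.1). In −log10 q, replicate 1 exceeded replicate 2 by a median of 0.426, and the median absolute difference was 1.72. Differences ran from -12.2 to 21.9, so single sites departed in both directions. Strengths in the replicates rose together, at a Spearman's rho of 0.85 and Pearson's r of 0.95 across these 204 peaks. Without the strongest region, Pearson's r was 0.94 over the other 203. These peaks share their 2 libraries and are not replicates.

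**Figure D4:**
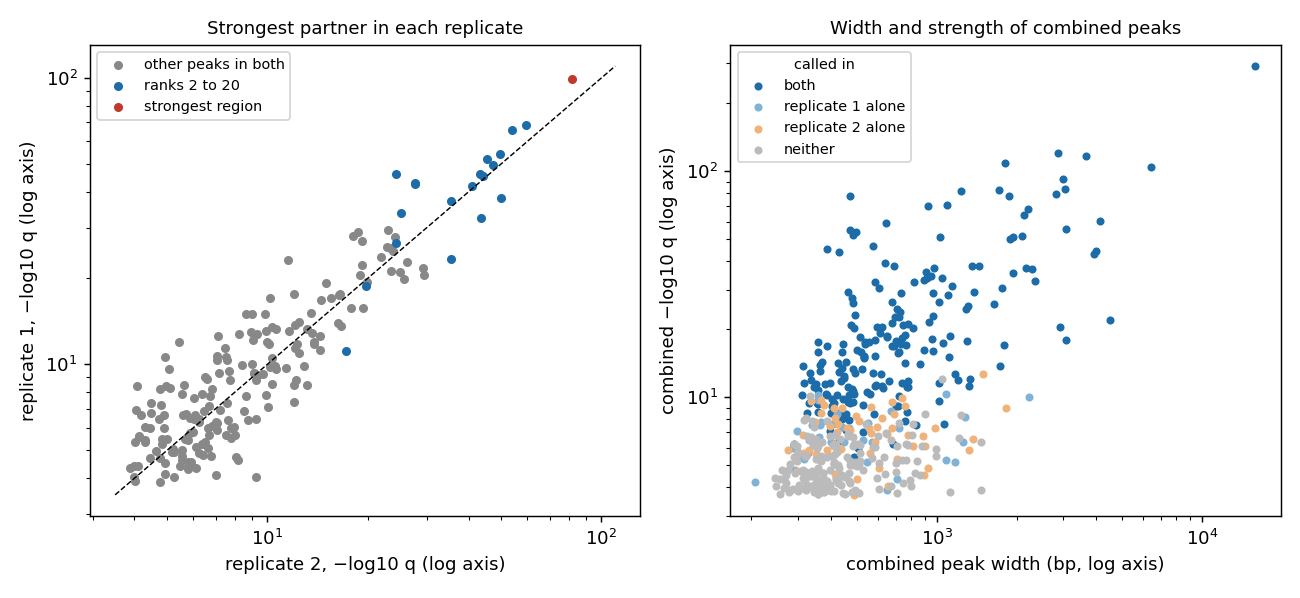
Left, −log10 q of the strongest partner in each replicate for the 204 combined peaks of chromosome II called in both, on log axes, with the line of equality dashed. Right, width against −log10 q for all 480 combined peaks, coloured by the lists in which they were called. The strongest region stands at the top right of both panels, and peaks called in neither replicate lie at −log10 q of 12.1 or below.

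Overlap of at least 1 bp was then used to ask which sites each replicate called. Of the 255 replicate 1 peaks, 216 (84.7%, 79.8 to 88.6) overlapped a replicate 2 peak, against 84.0% over all chromosomes. Of the 274 replicate 2 peaks, 217 (79.2%, 74.0 to 83.6) overlapped a replicate 1 peak, against 82.8% over all chromosomes. Both intervals contain the share over all chromosomes. Every replicate peak on chromosome II overlapped a combined peak.

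The combined list held 204 peaks called in both replicates (42.5%, 38.2 to 47.0), against 44.5% over all chromosomes. Peaks called in replicate 1 alone numbered 37 (7.71%), against 8.31%. Those called in replicate 2 alone numbered 56 (11.7%, 9.09 to 14.8), against 9.17%. Those called in neither numbered 183 (38.1%, 33.9 to 42.5), against 38.1%. These shares were near the background, which includes II itself, and no result about chromosome II is read from them. On the chromosomes other than II, the share in replicate 2 alone was 8.65%, just below the interval for II. That difference was not tested. How the combined list was made is not given in the sources used here, so its overlap with the replicates is not an independent check of them.

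The classes differed in strength and width. The combined list covers the same 2 replicates, so its q-values and the classes are not independent, and these values are a description. Peaks in both replicates had a median −log10 q of 16.9 and a median width of 647.5 bp. Medians were 6.49 and 420 bp for replicate 1 alone, 6.94 and 504 bp for replicate 2 alone, and 4.76 and 394 bp for neither. All 79 that reached −log10 q of 20 were in both. The strongest peak seen in replicate 2 alone ran from 9605827 to 9607320 (12.7). The strongest in replicate 1 alone ran from 7323136 to 7324218 (10.3), and the strongest in neither from 7287011 to 7288060 (12.1).

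With the 480 peaks ranked by q-value and taken 96 at a time, the change from shared to unshared was steep. The same limit applies here, since q-value and sharing are not independent. In the strongest 20%, 96 of 96 peaks were in both replicates, and in the next 20%, 84 of 96 (87.5%, 79.4 to 92.7). The middle 20%, with −log10 q from 6.24 to 9.20, had 20 of 96 (20.8%). The next 20% had 4 of 96. In the weakest 20% there were 0 of 96, for which the upper limit, set by 3 counts of 96, is 3.12%. In the replicates themselves the weakest 20% shared 25 of 51 peaks (49.0%, 35.9 to 62.3) for replicate 1 and 21 of 54 (38.9%) for replicate 2. These shares are not comparable with the combined ones, since a replicate peak had to overlap only the other replicate list.

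The share in both replicates was 37.5% (28.1 to 47.9) in the left section, 40.3% (33.9 to 47.0) in the centre and 47.5% (40.4 to 54.8) on the right. These intervals overlap, and no order is read from them. Replicate edges lay close to the combined edges, though the combined list covers the same 2 replicates and is no independent reference. Among the 191 combined peaks with 1 partner in each replicate, left edges lay a median of 33 bp from the combined edge in replicate 1 and 38 bp in replicate 2, and right edges 28 and 33 bp.

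Of the combined peaks on chromosome II, 69 were 1000 bp or wider. The combined median was 485 bp, with a middle 50% of 372 to 739 bp and extremes of 207 and 15906 bp. The replicate medians were 558 and 528.5 bp (543 ± 20.9, SD, n = 2). Wider peaks were stronger, at a Spearman's rho of 0.53 in the combined list, 0.54 in replicate 1 and 0.52 in replicate 2. Of the combined peaks, 21 exceeded 2000 bp (4.38%, 2.88 to 6.60), against 4.34% over all chromosomes, again near the background. Replicate 1 had 13 such peaks and replicate 2 had 12.

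Of the 21 wide peaks, 20 were called in both replicates, against 42.5% of all combined peaks on II. Since wider peaks were also stronger, this count is not separate from strength. The exception, from 4906356 to 4908588, was 2233 bp wide with −log10 q of 10.1 and overlapped a replicate 1 peak that covered 33.5% of it. In all, 13 combined peaks had more than 1 partner in a replicate, and 11 of them were wider than 2000 bp. Division occurred in both replicates at 9, in replicate 2 only at 3 and in replicate 1 only at 1. No replicate peak on chromosome II overlapped more than 1 combined peak, so where the lists differed in how an interval was divided, the combined list held the undivided form.

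Some wide peaks were weak for their width. The next widest after the first pair, from 12051505 to 12056015, was 4511 bp wide with −log10 q of 21.9, and each replicate called 2 peaks that covered 41.3% and 52.6% of it. The peak from 4747013 to 4750079 was 3067 bp wide with −log10 q of 18.0, and its strongest partners reached 4.95 and 5.24. By contrast, the peak from 14404127 to 14408263, 4137 bp wide, had −log10 q of 60.5 and was divided into 3 peaks in replicate 1 and 2 in replicate 2, the strongest at 11.1 and 17.2. The peaks from 9618473 to 9622463 and from 14597695 to 14601604, of 3991 and 3910 bp, had −log10 q of 44.5 and 43.0 and were divided into 2 in each replicate.

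Neighbouring peaks were often close. The median gap between combined peaks was 14.0 kb, with a middle 50% of 3335 to 36069 bp, and the smallest was 209 bp. Median gaps were 25.4 kb in replicate 1 and 24.4 kb in replicate 2. Of the 480 combined peaks, 261 had another peak at most 5 kb away (54.4%, 49.9 to 58.8), against 50.3% over all chromosomes. That interval contains the share over all chromosomes, which includes II itself. Chromosome III had a higher share, 56.7%, so close spacing is no result particular to chromosome II. The shares in the replicates were 45.9% and 51.1% (48.5% ± 3.69, SD, n = 2). By section the combined share was 58.0% on the left, 52.6% in the centre and 54.7% on the right. The replicates did not keep that order. In replicate 1 the shares were 39.0% on the left, 49.5% in the centre and 44.9% on the right, and in replicate 2 they were 37.8%, 55.4% and 51.9%. The sparse left section thus had the highest share in the combined list and the lowest in each replicate.

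**Figure D5:**
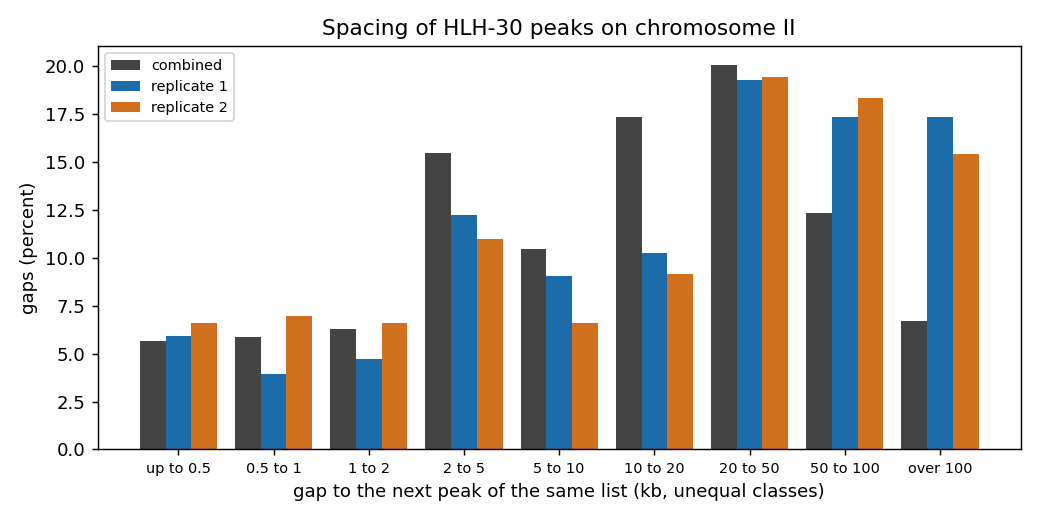
Percent of gaps between neighbouring peaks of chromosome II in each length class (kb, unequal classes) for the 3 lists. Gaps over 100 kb make up 6.68% of the combined list, 17.3% of replicate 1 and 15.4% of replicate 2.

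Joining combined peaks up to 10 kb apart gave 271 groups. Of these, 161 held a single peak and 110 held 2 or more, with 319 peaks among them. Groups of 3 or more numbered 50 and groups of 5 or more numbered 12. Of the 110 groups, 84 contained a peak called in both replicates, compared with 54 of the 161 lone peaks (33.5%). A group has more chances to hold such a peak, so these counts are given as a description.

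The largest group had 9 peaks from 6822198 to 6849713. Its strongest member, from 6842290 to 6844644, had −log10 q of 32.8 in the combined list, 17.6 in replicate 1 and 16.5 in replicate 2. Among the 9, 3 were in both replicates, 4 in replicate 2 alone, 1 in replicate 1 alone and 1 in neither. The next group had 8 peaks from 14036572 to 14063321, led by the rank 14 peak, with 4 in both, 2 in replicate 1 alone and 2 in neither. So in the first group the unshared peaks leaned to replicate 2, and in the second to replicate 1.

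The third group had 7 peaks from 13279141 to 13304828, of which 5 were in both replicates, with a maximum −log10 q of 20.5. A further 4 groups tied at 6 peaks. The one from 2962564 to 2977057 lay in the crowded left arm bin, with 2 peaks in both replicates, 2 in replicate 2 alone and 2 in neither. The one from 15193784 to 15212925 had 5 in both and 1 in replicate 1 alone, with −log10 q from 7.69 to 17.1. The one from 5321604 to 5346669 had 3 in both, 2 in replicate 1 alone and 1 in neither. The one from 13668797 to 13681372 had 2 in both, 3 in replicate 2 alone and 1 in neither. The tied groups thus ranged from 2 to 5 shared peaks.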

How the data were processed

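HLH-30 ChIP libraries from 2 replicates were represented by 1 peak list each, and a further combined list covered both. WormBase WS180 is the build, per the file headers, and each line names PeakSeq and a q-value, the only value the authors deposited. Aligner, caller version, control and the making of the combined list: not given in the sources used here. No test was made. Peaks were not treated as replicates, shares carry 95% Wilson intervals (counting error only), and replicate values are mean ± SD (n = 2). A peak was placed by its centre, gaps were measured edge to edge, and peaks were shared if they overlapped by at least 1 bp. Strength is −log10 of the q-value, computed here from the deposited values. Named peaks were drawn from the 20 strongest, the 10 widest, the strongest of each class and those of the strongest region. They also came from the most crowded bins, gaps and groups, and others were named after their values were seen. Not every member of these sets is named. The members, lists and rules were chosen with earlier results of these data known. Functions were tested on simulated lists. Python 3.11.15, numpy 2.4.6, pandas 2.3.3, scipy 1.17.1 and matplotlib 3.10.9 were used. Depth is unknown, and coordinates were not matched to genes because the annotation available was of another build.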

Additional observations from a re-analysis of the deposited data

How the results depend on the processing

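The left share of 18.3% stayed within its counting interval under every alternative tried, from 16.1% to 19.6%. Those alternatives were added after the values were seen. The central share of 44.0% did so too, except that segments 4 to 7 of 10, taken as the centre, held 52.9%. With centres within 200 bp counted as shared, 35.8% of combined peaks were in both replicates, and the overlaps of replicate 1 and replicate 2 were 76.1% and 70.8%. The other measures moved with the list. In the stronger 50%, the share with a neighbour within 5 kb was 38.75%, the median width 623.5 bp, the fullest bin 11 peaks and the density 15.7 per Mb. Among peaks in both replicates these were 38.2%, 647.5 bp, 10 and 13.4. Counting each group joined at 10 kb as 1 peak, the fullest bin held 9 and the density was 17.8. A neighbour lay within 2 kb for 31.5% and within 10 kb for 66.5%. With 1 replicate left out, the other's own list gave 45.9% to 51.1%, 528.5 to 558 bp, 11 to 13, 16.7 to 18.0 per Mb, and 4 to 5 of the 9 replicate peaks in the strongest region. The causes were not tested, beyond the fewer peaks that a stricter or replicate list holds by construction. No paired analysis was possible because there is a single group of peak lists, the ChIP group; no list of the equally numbered inputs was used here. Depth is unknown, so a site missing from 1 replicate is not shown to be unbound there.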

Other observations

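A bin in the central section differed between the replicates. From 7.75 to 8 Mb the combined list had 10 peaks, replicate 2 had 4 and replicate 1 had none. Replicate 1 had no peak from 7642514 to 8011987. All 10 combined peaks were weak or moderate, with −log10 q from 3.96 to 9.52, and the 4 in replicate 2 reached 3.99 to 8.00. The strongest of these in replicate 2 lay in the combined peak from 7806759 to 7807133.

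The outermost combined peaks of chromosome II were called in both replicates. The first, from 18686 to 19715, had −log10 q of 51.2 in the combined list, 29.5 in replicate 1 and 22.9 in replicate 2, and ranked 24 of the 480. The last, from 15262893 to 15263422, had 15.2, 8.25 and 5.11. Its distance from the chromosome's end is not known here, since the length was set from the peaks themselves.

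Peaks called in neither replicate lay a median of 19.1 kb from the nearest peak called in both, and 45 of 183 (24.6%, 95% Wilson interval 18.9 to 31.3) lay within 5 kb of one. For peaks in replicate 2 alone the median was 10.8 kb and 23 of 56 (41.1%, 29.2 to 54.1) lay within 5 kb. For replicate 1 alone these were 17.8 kb and 10 of 37 (27.03%, 15.4 to 43.0). Peaks in both lay a median of 9.79 kb from the nearest other such peak, and 78 of 204 (38.2%, 31.8 to 45.1) lay within 5 kb. The share for replicate 2 alone was thus near that of the shared peaks themselves. The differences were not tested.

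The weakest combined peaks of chromosome II had q = 0.000195 (from 9686611 to 9687099, also called in replicate 2) and q = 0.000187 (from 7264641 to 7264998, called in neither).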
